A study of Mus musculus with 26 samples.

Results

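Fibroblast growth factors (FGFs) and their receptors were followed in embryonic stem (ES) cells with and without ZFP57, a KRAB zinc finger protein that holds repressive marks at imprinted regions. The 10 genes were taken by symbol from the 24409 genes of the expression table. They were the secreted ligands *Fgf3*, *Fgf4*, *Fgf8*, *Fgf15* and *Fgf17*, the receptor tyrosine kinases *Fgfr1*, *Fgfr2*, *Fgfr3* and *Fgfr4*, and *Fgfbp1*, which encodes a secreted carrier of FGFs. Total RNA depleted of ribosomal RNA was sequenced from 3 wild-type (WT) and 2 ZFP57 KO (zygotic) samples of male C57BL/6J ES cells. The KO carries a disruption of the *Zfp57* coding exons for the KRAB domain and the zinc fingers. Both genotypes came from E2.5 morulae and were grown at matched passage, up to passage 15, with LIF and 2 inhibitors. One of these, CHIR99021, acts on Gsk3. The other, PD0325901, blocks MEK, the kinase that activates ERK below the FGF receptors, so every value here comes from cells in which this branch of the pathway was held under a drug.

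FGFs bind their receptors together with heparan sulphate on the cell surface. The activated receptor signals through the adaptors FRS2, GRB2 and SOS to RAS, RAF, MEK and ERK. ERK then switches on its own brakes, among them the Sprouty and Spred proteins and the phosphatase DUSP6. In the blastocyst, FGF4 from the epiblast acts on FGFR1 and FGFR2 and drives primitive endoderm formation, and in ES cells autocrine FGF4 prepares cells to leave the naive state.

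Expression was given as FPKM, the fragments on a gene scaled for transcript length and library size, so that levels of different genes can be compared per length. The 5 libraries held between 17504 and 18138 genes above 0, and the steps between low values showed 1 fragment on a transcript of 1 kb to be worth 0.0170 to 0.0197 FPKM, so depth was similar in all of them. The KO libraries differed from the WT libraries by more than libraries of 1 genotype differed from each other (root mean square differences of log2 levels of 0.510 to 0.612 against 0.235 to 0.256). *Zfp57* itself stood at 75.94, 72.34 and 70.55 FPKM in WT and at 19.00 and 21.62 FPKM in KO. This gene-level value includes exons outside the disrupted part. The ES cell genes of highest level, *Nanog*, *Pou5f1*, *Tfcp2l1* and *Sox2*, all had 78.24 FPKM or more in every library. Genes whose mean over the 5 libraries reached 0.1 FPKM entered a limma fit of log2(FPKM + 0.1), and a gene was called at a Benjamini-Hochberg adjusted p under 0.05. Fold changes on this scale understate the change of low genes. Of 14612 genes tested, 41.1% were called, 18.8% higher and 22.3% lower in KO. Chromosome 11 stood apart, with 825 of its 1224 tested genes called lower and a median log2 fold change of -0.47, against -0.01 over all tested genes. None of the 10 FGF genes lies there. On each of the chromosomes that hold them (5, 7, 8, 13, 14 and 19) the median was between -0.03 and 0.04.

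*Fgf4* was by far the most abundant transcript of the group in both genotypes, and *Fgfr1* was the main receptor. In WT the mean of *Fgf4* (58.9 ± 2.6 FPKM, SD, n = 3) was 8.92 times that of *Fgfr1*, and 2.44% of the genes in the table stood above it. *Fgfr1* followed with 6.60 ± 0.39 FPKM. *Fgf17* (1.79 ± 0.11 FPKM), *Fgfbp1* (1.09 ± 0.26 FPKM) and *Fgfr2* (0.920 ± 0.16 FPKM) came next, and the libraries of *Fgfbp1* and *Fgfr2* overlapped. *Fgf3* (0.533 ± 0.14 FPKM) and *Fgfr4* (0.193 ± 0.015 FPKM) were lower. *Fgf15*, *Fgf8* and *Fgfr3* had WT means under 0.1 FPKM, and neighbours among these 3 overlapped. In KO the order changed at 1 place above the lowest 3 genes. *Fgfbp1* (2.04 ± 0.064 FPKM, n = 2) stood above *Fgf17* (1.54 ± 0.50 FPKM) in both KO libraries, whereas in WT all libraries of *Fgf17* stood above those of *Fgfbp1*. *Fgf4* remained the highest, now at 5.95 times *Fgfr1*, and *Fgf3* and *Fgfr4* overlapped.

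**Figure D1:**
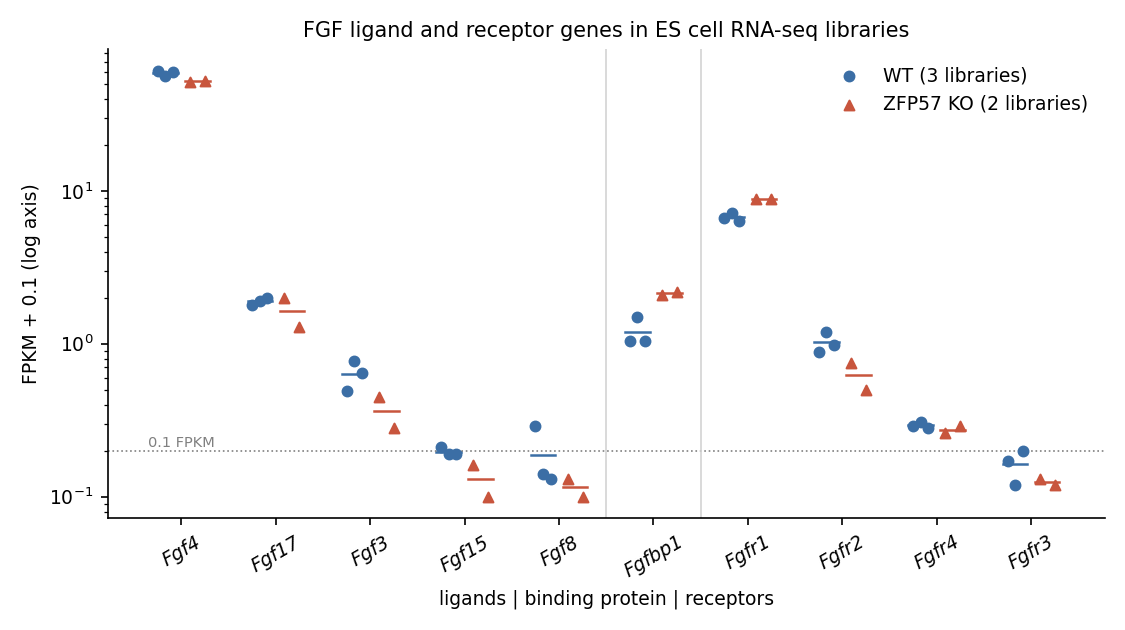
Level of each FGF gene (FPKM + 0.1, log axis) in the 3 WT (circles) and 2 ZFP57 KO (triangles) libraries, with ligands at the left, *Fgfbp1* between the grey lines and receptors at the right. Short lines are group means and the dotted line marks 0.1 FPKM. *Fgf4* is highest in every library, and the KO libraries lie above the WT libraries for *Fgfbp1* and *Fgfr1*.

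Of the 10 genes, 7 reached the level for testing, and 4 of these were called, *Fgfr1* and *Fgfbp1* higher and *Fgf4* and *Fgfr2* lower in KO. Over all tested genes 41.1% were called in either direction. The KO and WT libraries did not overlap for 5 of the 7 (the 4 called genes and *Fgf3*), where 63.4% of all tested genes did not overlap. No FGF gene was called with a change of 1 or more on the log2 scale, whereas 8.02% of tested genes were. The median log2 fold change of the 7 was -0.18, and their median size was 0.40, against 0.25 over all tested genes. RNA from a culture cannot tell fewer cells of a type from less RNA per cell, and this holds for every comparison given here. The number called was 2 without WT 1, 2 without WT 3 and 1 without KO 2, in fits in which the calls over all genes also fell from 6002 to 4628, 4257 and 4146.

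**Figure D2:**
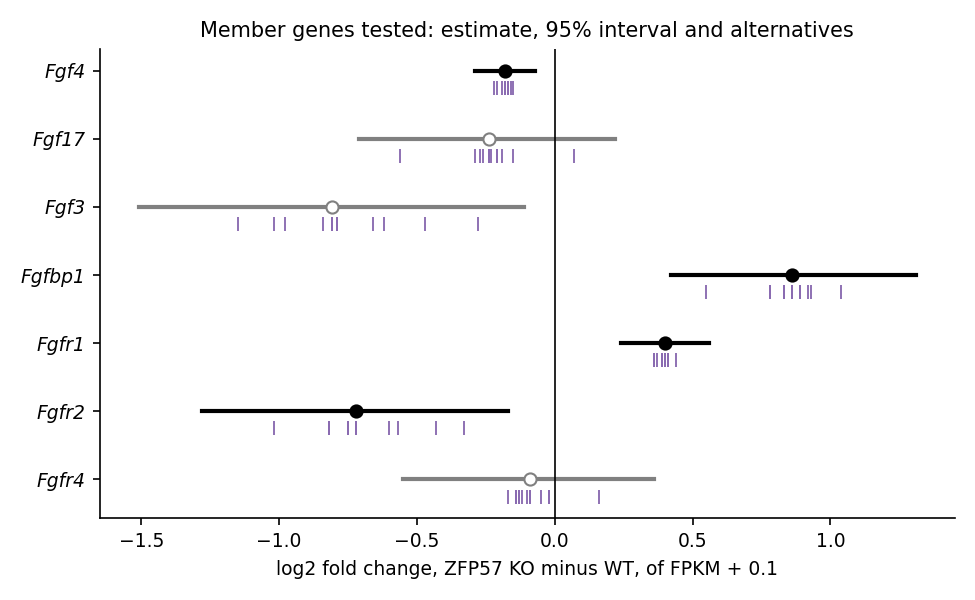
Log2 fold change (ZFP57 KO minus WT, of FPKM + 0.1) of the 7 tested FGF genes, with the 95% interval from limma. Filled points were called, open points were not, and purple ticks are the values under alternative settings. *Fgfr1* and *Fgfbp1* stay to the right of 0, *Fgf4*, *Fgf3* and *Fgfr2* stay to the left, and ticks of *Fgf17* and *Fgfr4* fall on both sides.

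*Fgf4*, the FGF of the early epiblast, was modestly lower in KO. It stood at 60.99, 55.95 and 59.72 FPKM in WT and at 51.49 and 52.38 FPKM in KO, which corresponds by these steps to between 8199 and 10169 inferred fragments per library. Both KO libraries lay below all WT libraries. The KO mean was 0.88 times the WT mean, with a log2 fold change of -0.18 (SE 0.05, 95% interval -0.29 to -0.07, limma adjusted p = 0.024). An exact permutation test of the 5 libraries gave p = 0.20, where 0.1 is the smallest that 3 against 2 can give. The call was lost without WT 1 (limma adjusted p = 0.066) or WT 3 (0.079), with a replicate block (0.12) and with eBayes without trend (0.083). It was also lost without KO 1 (log2 fold change -0.17) or KO 2 (-0.19). The estimate stayed between -0.22 and -0.15 under every alternative run.

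*Fgf4* lies on the plus strand of chromosome 7 (chr7:144861386-144865245, GRCm38). RefSeq promoter windows, from 250 bases before to 50 bases after an annotated start, were at hand for 6 of the 10 genes. Those of the called genes *Fgf4*, *Fgfbp1* and *Fgfr2* are shown. *Fgf8*, *Fgf15*, *Fgf17* and *Fgfr1* had no entry. The window of *Fgf4* (chr7:144861136-144861435, plus strand) is printed 5′ to 3′, with capitals for matches to GGGCGG (a GC box), CCAAT (read as ATTGG on the other strand) and TATATA.
Fgf4: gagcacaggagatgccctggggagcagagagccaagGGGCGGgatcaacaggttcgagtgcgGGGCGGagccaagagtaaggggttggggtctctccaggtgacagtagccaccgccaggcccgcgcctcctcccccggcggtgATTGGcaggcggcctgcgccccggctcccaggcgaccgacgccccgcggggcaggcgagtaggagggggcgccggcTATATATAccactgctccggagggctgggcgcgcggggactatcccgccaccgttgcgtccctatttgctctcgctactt
The window held 69.7% G and C and 28 CpG, against medians of 52.7% and 7 over 32851 RefSeq windows. GGGCGG began at -214 and -188, ATTGG at -106, and the overlapping matches to TATATA at -30 and -28, counted from the annotated start as +1 with no position 0. On either strand 35.7% of all windows hold GGGCGG, 37.4% CCAAT and 5.67% TATATA. These are matches of letters only, and no binding was measured at them here.

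*Fgf17* and *Fgf3* were the only other FGF ligands of the group that reached the level for testing, and neither was called. *Fgf17*, a relative of *Fgf8*, stood at 1.68, 1.81 and 1.89 FPKM in WT and at 1.89 and 1.18 FPKM in KO. One KO library equalled the highest WT library and the other lay below all of them. The log2 fold change was -0.24 (SE 0.19, 95% interval -0.71 to 0.22, adjusted p = 0.35). It was 0.07 without KO 2 (adjusted p = 0.69) and -0.56 without KO 1 (0.030), so the direction rested on 1 library.

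*Fgf3*, a ligand that binds FGFR2 and acts later in inner ear and tail development, stood at 0.39, 0.67 and 0.54 FPKM in WT and at 0.35 and 0.18 FPKM in KO. The groups did not overlap, but the lowest WT and the higher KO library were close. The KO mean was 0.50 times the WT mean, and the log2 fold change of -0.81 (SE 0.29, 95% interval -1.51 to -0.11) missed the threshold with an adjusted p of 0.066. Between 12 and 47 inferred fragments lay behind each value, and without KO 1 the gene was called (-1.15, adjusted p = 0.044).

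*Fgf15* and *Fgf8* were close to the limit of detection. *Fgf15* stood at 0.11, 0.09 and 0.09 FPKM in WT and at 0.06 and 0.00 FPKM in KO, from at most 11 inferred fragments in a library. *Fgf8* stood at 0.19, 0.04 and 0.03 FPKM in WT and at 0.03 and 0.00 FPKM in KO, with WT 1 above the other 4. Both fell under the level for the main fit. In the fit without that filter neither was called, with log2 fold changes of -0.64 (95% interval -1.19 to -0.08, limma adjusted p = 0.089) for *Fgf15* and -0.61 (-1.60 to 0.38, adjusted p = 0.31) for *Fgf8*.

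*Fgf3*, *Fgf4* and *Fgf15* lie side by side on chromosome 7, all on the plus strand (chr7:144838612-144843348, chr7:144861386-144865245 and chr7:144896532-144900953). *Fgf3* and *Fgf4* are 18.0 kb apart, and *Fgf4* and *Fgf15* 31.3 kb. In spite of this, the WT mean of *Fgf4* was 58.9 FPKM while its neighbours had 0.533 and 0.0967 FPKM. Of the 3 genes *Fgf4* alone was called. Its KO and WT libraries did not overlap, nor did those of *Fgf3*, as for 63.4% of all tested genes. Those of *Fgf15* did not overlap either, at levels under the filter. Within 250 kb of the cluster the table held 7 genes with these 3. *Ano1*, a chloride channel gene, rose from 0.34, 0.32 and 0.24 FPKM to 0.55 and 0.70 FPKM (log2 fold change 0.86, SE 0.20, adjusted p = 0.016). *Ccnd1*, the gene of cyclin D1, had a log2 fold change of 0.05 (95% interval -0.28 to 0.38) and *Oraov1* of -0.02 (-0.38 to 0.34), neither of them called. *Bc1* was under the level for testing. No gene near the cluster other than *Fgf4* was called lower. On chromosome 7 as a whole 36.6% of tested genes were called, with a median log2 fold change of 0.00.

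*Fgfbp1*, which releases FGFs from heparan sulphate and presents them to receptors, had the largest called change of the group. It stood at 0.94, 1.39 and 0.94 FPKM in WT and at 1.99 and 2.08 FPKM in KO. The KO libraries were close to each other and above all WT libraries. The KO mean was 1.87 times the WT mean, with a log2 fold change of 0.86 (SE 0.18, 95% interval 0.42 to 1.31, adjusted p = 0.013). The exact permutation test gave p = 0.20. Each value rested on 60 to 143 inferred fragments. With only 1 KO library kept, the value was 0.89 without KO 1 (adjusted p = 0.054) and 0.83 without KO 2 (0.070). *Fgfbp1* lies on the minus strand of chromosome 5 (chr5:43978858-43981828), and the printed window is chr5:43981750-43982049, with matches to CCAAT (as ATTGG) and TATAAA in capitals.
Fgfbp1: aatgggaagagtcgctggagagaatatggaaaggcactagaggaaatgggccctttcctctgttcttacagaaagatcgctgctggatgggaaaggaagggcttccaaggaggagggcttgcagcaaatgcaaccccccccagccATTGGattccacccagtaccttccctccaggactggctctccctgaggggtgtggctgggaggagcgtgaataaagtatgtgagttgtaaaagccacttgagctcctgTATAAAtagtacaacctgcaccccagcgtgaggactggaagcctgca
It had 53.3% G and C and 4 CpG, near the median base composition of all windows and unlike the CpG-rich window of *Fgf4*. ATTGG began at -105 and TATAAA at +4, which is downstream of the annotated start. TATAAA is found in 13.6% of all windows.

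*Fgfr1* and *Fgfr2*, the 2 receptors through which FGF4 acts in the early embryo, moved in opposite directions. *Fgfr1* stood at 6.56, 7.01 and 6.23 FPKM in WT and at 8.69 and 8.78 FPKM in KO. The KO libraries were nearly equal and lay well above the highest WT library. The KO mean was 1.32 times the WT mean, with a log2 fold change of 0.40 (SE 0.06, 95% interval 0.24 to 0.56, adjusted p = 0.0046), and the exact permutation test gave the smallest p it can give, 0.10. *Fgfr1* was called under all 15 alternatives, at 0.36 to 0.44, from 1588 to 2428 inferred fragments per library. It lies on the plus strand of chromosome 8 (chr8:25518759-25575718), and 2 long noncoding RNA genes lie within it. One of these, *Gm16159*, had at most 0.15 FPKM in any library, and the other, *Gm31288*, has no row in the table.

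*Fgfr2* stood at 0.78, 1.10 and 0.88 FPKM in WT and at 0.65 and 0.40 FPKM in KO. Both KO libraries were below all WT libraries, and they differed from each other by more than KO 1 differed from the lowest WT library. The KO mean was 0.57 times the WT mean, with a log2 fold change of -0.72 (SE 0.23, 95% interval -1.28 to -0.17, adjusted p = 0.046) and an exact permutation p of 0.10. This call lay close to the threshold and held in 5 of 14 alternatives. It was lost without WT 1 (adjusted p = 0.063), WT 2 (0.12), WT 3 (0.10) or KO 2 (-0.43, 0.21), and also with chromosome medians subtracted (0.057). The direction stayed the same throughout, from -1.02 to -0.33. *Fgfr2* lies on the minus strand of chromosome 7 (chr7:130162451-130266808). Its window (chr7:130266759-130267058) held none of the motifs searched and has no capitals.
Fgfr2: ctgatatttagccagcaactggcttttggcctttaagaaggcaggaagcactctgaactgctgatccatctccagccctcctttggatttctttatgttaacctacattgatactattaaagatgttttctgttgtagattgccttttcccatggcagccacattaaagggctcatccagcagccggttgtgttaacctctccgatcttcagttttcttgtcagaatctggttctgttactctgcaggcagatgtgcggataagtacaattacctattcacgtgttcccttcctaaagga
With 43.7% G and C and 4 CpG it lay below the lower quartile of all windows for base composition (45.7%). It does not stand for the receptors as a group. The *Fgfr4* window had 65.3% G and C and 20 CpG. The *Fgfr3* windows had 69.7% and 73.0% G and C, with 26 and 30 CpG. Which annotated start these cells use was not tested.

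*Fgfr4* and *Fgfr3* contributed little to the receptor transcripts. *Fgfr4* stood at 0.19, 0.21 and 0.18 FPKM in WT and at 0.16 and 0.19 FPKM in KO, overlapping between genotypes, with a log2 fold change of -0.09 (SE 0.19, 95% interval -0.55 to 0.36, adjusted p = 0.72). *Fgfr3* stood at 0.07, 0.02 and 0.10 FPKM in WT and at 0.03 and 0.02 FPKM in KO, and in the fit without the filter it was not called (-0.36, 95% interval -0.95 to 0.24, adjusted p = 0.32).

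Summed over the 4 receptors, transcripts amounted to 7.60, 8.34 and 7.39 FPKM in WT and to 9.53 and 9.39 FPKM in KO, a ratio of the means of 1.22. *Fgfr1* accounted for 84.1 to 86.3% of this sum in WT and for 91.2 and 93.5% in KO. *Fgfr2* took 10.3 to 13.2% in WT and 6.82 and 4.26% in KO. The level of *Fgfr1* over that of *Fgfr2* was thus 8.41, 6.37 and 7.08 in the WT libraries and 13.37 and 21.95 in the KO libraries. On the ligand side *Fgf4* made up 90.9 to 91.6% of the summed FPKM of all 22 FGF family genes other than receptors in WT, and 89.5 and 91.1% in KO. The level of *Fgf4* over the receptor sum was 8.03, 6.71 and 8.08 in WT and 5.40 and 5.58 in KO. These ratios follow from the single values above and were not tested on their own.

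**Figure D3:**
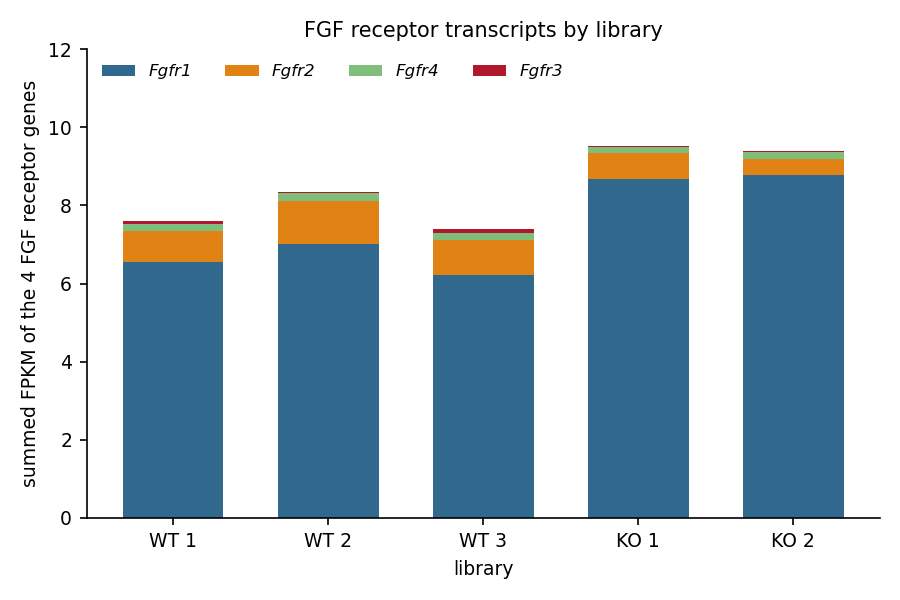
Summed FPKM of the 4 FGF receptor genes in each library, stacked by gene, with the y axis from 0. The 2 KO bars (9.53 and 9.39 FPKM) are higher than the 3 WT bars, with a larger *Fgfr1* part and a smaller *Fgfr2* part.

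The remaining 17 FGF genes of the family were mostly silent in these cells. Of these, 6 were tested and 3 were called, 2 higher and 1 lower, with a median log2 fold change of -0.09. This is 50.0%, from few genes, against 41.1% of all tested genes. *Fgf5*, a ligand switched on as epiblast cells leave the naive state, rose from 0.06, 0.09 and 0.05 FPKM in WT to 0.44 and 0.35 FPKM in KO (log2 fold change 1.57, SE 0.22, adjusted p = 0.0027). All its WT libraries were under 0.1 FPKM, so it reached the level for testing only through the KO libraries, where it had to be higher. *Fgf10*, a ligand of FGFR2 in limb and lung, rose from 0.84, 0.67 and 0.63 FPKM to 1.50 and 1.39 FPKM (0.93, SE 0.15, adjusted p = 0.0050). *Fgf13*, a member of the family that stays inside the cell, fell from 0.57, 0.39 and 0.43 FPKM to 0.21 and 0.18 FPKM (-0.92, SE 0.20, adjusted p = 0.014). The 3 changes left the FGF transcripts other than *Fgf4* at similar sums, 5.50 to 5.69 FPKM in WT and 6.03 and 5.11 FPKM in KO. *Fgf11* and *Fgf18* lie on chromosome 11. With chromosome medians subtracted, *Fgf11* went from 0.02 (limma adjusted p = 0.91) to 0.50 (0.038) and was called higher only then. *Fgf18* went from -0.63 (adjusted p = 0.055) to -0.15 (0.61) and was called in neither fit. Of 8 markers of formative and primed epiblast tested, *Fgf5* alone was called higher, and *Pou3f1*, *Lef1* and *Sall2* were called lower. *Otx2* stood at 0.10, 0.09 and 0.07 FPKM in WT and at 0.17 and 0.16 FPKM in KO, without overlap, and was not called (0.51, adjusted p = 0.096). Like *Fgf5*, it had a WT mean under 0.1 FPKM. The share called, 50.0%, compares with 41.1% of all tested genes. The summed level of the 8 was 52.4 to 58.9 FPKM in WT and 47.5 and 42.0 FPKM in KO.

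Several genes for the cell-surface partners of FGFs were higher in KO. Of 28 co-receptor and heparan sulphate genes listed, 27 were in the table and 25 were tested, of which 10 were called higher and 3 lower, with a median log2 fold change of 0.22. The share called was 52.0%, against 41.1% of all tested genes. *Gpc6*, a glypican, rose from 0.14, 0.23 and 0.16 FPKM to 0.97 and 1.03 FPKM (log2 fold change 2.00, SE 0.20, adjusted p = 9.1e-04). *Flrt3*, a membrane protein that binds FGF receptors, rose from 0.64, 0.78 and 0.51 FPKM to 2.86 and 2.48 FPKM (1.91, SE 0.18, adjusted p = 8.1e-04). *Hspg2*, the gene of the basement membrane proteoglycan perlecan, rose from 6.44, 5.49 and 5.01 FPKM to 12.26 and 13.50 FPKM (1.18, SE 0.11, adjusted p = 7.9e-04). These 3 genes had KO means of more than 2 times the WT means. *Gpc3* also rose (0.62, adjusted p = 0.014). Among the genes that fell, *Fgfrl1*, a receptor without a kinase domain, went from 1.43, 1.34 and 1.71 FPKM to 0.84 and 0.88 FPKM (-0.72, adjusted p = 0.0083). *Klb*, the co-receptor for the endocrine FGFs, went from 0.63, 0.43 and 0.51 FPKM to 0.27 and 0.31 FPKM (-0.67, adjusted p = 0.036). Without KO 2 the list had 8 calls in place of 13, and all genes 4146 in place of 6002.

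*Hspg2* and the laminin gene *Lama1* are both made by primitive endoderm. Among 8 markers of that lineage, summed levels were 1.80 to 2.14 FPKM in WT and 6.44 and 8.06 FPKM in KO, with *Lama1* and *Sox7* called higher of the 5 tested, a share near the 41.1% of all tested genes. *Lama1* carried most of this difference, since the other 7 markers summed to 0.770 to 0.930 FPKM in WT and to 1.44 and 1.12 FPKM in KO, and the 5 tested markers had a median log2 fold change of -0.11. *Sox7* rose from 0.09, 0.15 and 0.11 FPKM in WT to 0.90 and 0.48 FPKM in KO (log2 fold change 1.82, SE 0.28, limma adjusted p = 0.0041). The defining factor *Gata6* was between 0.03 and 0.05 FPKM and *Sox17* between 0.01 and 0.06 FPKM in every library. *Gata4* was not called, at 0.22 to 0.29 FPKM in WT and 0.21 and 0.11 FPKM in KO. Of 8 fibroblast markers, 3 were at 0 in all libraries, and the sum was 0.630 to 0.700 FPKM in WT and 0.530 and 0.940 FPKM in KO. Summed trophoblast markers were 17.0 to 19.0 FPKM in WT and 17.9 and 16.6 FPKM in KO. Of the 6 tested, *Eomes* and *Krt8* were called higher and *Tfap2c* lower, 50.0% against 41.1% of all tested genes. *Tfap2c* made up most of that sum, and the other 7 markers together had 1.60 to 1.90 FPKM in WT and 4.68 and 5.53 FPKM in KO. Summed mesendoderm markers were 23.2 to 25.2 FPKM in WT and 28.1 and 27.4 FPKM in KO. Of the 6 tested, *T* and *Foxh1* were called higher and *Nodal* lower, again 50.0% against 41.1%. Without *Nodal*, the marker of highest level, the mesendoderm sum was 9.48 to 11.7 FPKM in WT and 17.5 and 15.6 FPKM in KO. *Foxh1* alone made up 7.70 to 9.86 FPKM of this in WT and 14.58 and 13.62 FPKM in KO. The part of other cell types in the changes of the FGF genes was not tested.

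The transducers between receptor and ERK were called about as often as genes at large. All 30 genes listed were tested, 8 were called higher and 5 lower (43.3% called, against 41.1% of all tested genes), and their median log2 fold change was -0.01, the same as over all genes. *Ksr1*, a scaffold of the RAF, MEK and ERK cascade, fell from 5.24, 4.90 and 5.68 FPKM to 2.16 and 2.41 FPKM (-1.17, SE 0.09, adjusted p = 5.7e-04). *Grb2*, the adaptor that brings SOS to the receptor complex, fell from 25.31, 23.47 and 25.00 FPKM to 17.45 and 16.55 FPKM (-0.53, SE 0.05, adjusted p = 8.4e-04). *Nf1*, a RAS inhibitor, fell from 10.54, 10.42 and 10.99 FPKM to 7.64 and 7.78 FPKM (-0.46, SE 0.05, adjusted p = 0.0012). All 3 of these genes lie on chromosome 11. With the median of each chromosome subtracted, *Grb2* (-0.05, adjusted p = 0.33) and *Nf1* (0.02, adjusted p = 0.77) were no longer called, and *Ksr1* was (-0.69, adjusted p = 0.0026). Among the genes that rose were the adaptor *Shc1* (0.67, SE 0.04, adjusted p = 4.1e-04) and the PI3-kinase subunit *Pik3r1* (0.66, SE 0.08, adjusted p = 0.0015).

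Targets and feedback inhibitors of ERK, which read out the pathway in many cells, were higher in KO for 9 of 15 genes tested, in cells grown with a MEK inhibitor in both genotypes. This list overlaps one that was drawn up after values of *Spry4* and *Etv4* had been seen and is no independent evidence of its direction. One gene was lower, so that 66.7% were called, against 41.1% of all tested genes (18.8% higher and 22.3% lower), with a median log2 fold change of 0.49. *Spry4* rose from 0.09, 0.19 and 0.08 FPKM to 2.97 and 2.82 FPKM (3.80, SE 0.24, adjusted p = 3.7e-04) and *Etv4* from 1.02, 1.10 and 0.61 FPKM to 7.94 and 8.97 FPKM (3.12, SE 0.23, adjusted p = 5.2e-04). *Dusp6* (1.91), *Etv1* (1.56), *Spred3* (1.05) and *Spred1* (0.95) followed. *Egr1* and *Fos*, the immediate early genes of the pathway, were at or under 0.24 FPKM in every library and were not called, and *Etv5* was also not called at 48.49 to 52.34 FPKM. The only gene called lower was *Spred2* (-0.57, SE 0.06, adjusted p = 0.0011). It lies on chromosome 11 and had a value of -0.10 (adjusted p = 0.29) with the chromosome median subtracted.

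**Figure D4:**
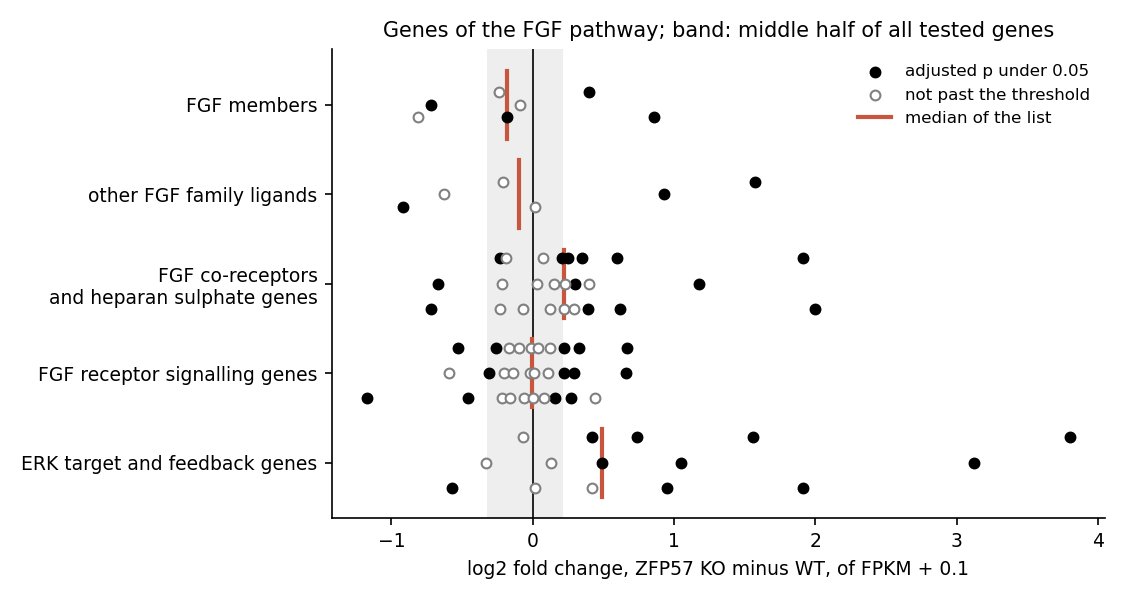
Log2 fold change (ZFP57 KO minus WT, of FPKM + 0.1) of each tested gene in the 10 FGF genes and the 4 lists of pathway genes. Filled points were called, open points were not, red lines are list medians, and the grey band spans the quartiles of all tested genes (-0.31 to 0.21). The ERK list has the highest median (0.49) and the signalling list the one nearest to 0 (-0.01).

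Binding of ZFP57 was compared with the position of the FGF genes, since its peaks in these ES cells were deposited as intervals of the same genome build. None of the 10 genes had a ZFP57 peak within 20 kb, where 4.25% of 24288 placed genes have one, nor within 50 kb (8.11%). The nearest peaks were 0.546 Mb (*Fgf8*) to 1.85 Mb (*Fgfbp1*) away, and 55.1% of all placed genes are likewise more than 500 kb from a peak. For the *Fgf3*, *Fgf4* and *Fgf15* cluster the nearest peak lay at chr7:143295535-143295914, within *Kcnq1* and *Kcnq1ot1*, an imprinted locus 1.54 to 1.60 Mb from these genes. The letters TGCCGC, the core of the site that ZFP57 recognises when methylated, were searched on both strands of the 7 windows of 6 FGF genes. One of the *Fgfr3* windows held them, and 11.6% of all windows do. Read against these shares, a count of 0 among 10 genes is not a result about the FGF genes.

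Many genes in the table had a pattern over the 5 libraries like that of *Fgf4* or *Fgfr1*. Likeness was measured as the root mean square difference of log2(FPKM + 0.1) after subtracting each gene's WT mean, over the 10663 other genes that averaged 1 FPKM or more. The nearest to *Fgf4* were *2410016O06Rik* (0.014), *Ylpm1* (0.015) and *Sh3glb2* (0.016), and 1705 genes were within 0.1. The nearest to *Fgfr1* were *Rbmx* (0.018), *Khdrbs1* (0.019) and *Eny2* (0.024), with 695 genes within 0.1. *Fgf17* (*Jade2*, 0.050) and *Fgfbp1* (*Gbx2*, 0.086, *Cables1*, 0.091, and *Tiparp*, 0.092) had few genes as near, 17 and 4 within 0.1. Such counts also depend on the level of a gene and on the size of its change. *Fgf17* rested on 110 to 180 inferred fragments per library and *Fgfbp1* on 60 to 143, against 8199 to 10169 for *Fgf4*. The counts therefore do not show that the patterns of *Fgf17* and *Fgfbp1* were less common.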

How the data were processed

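Total RNA depleted of ribosomal RNA was sequenced by the authors as paired reads of 150 bp. The deposited table holds FPKM per gene for 3 WT and 2 ZFP57 KO libraries, rounded by the authors to 2 decimals. The submitters' processing notes name FastQC 0.11.5, Trim Galore 0.2.7, BWA 0.6.2, STAR 2.5.2, Picard and MACS2 2.1.0 without their roles, and the genome build mm10. The counting, its use of strand and the gene annotation are not given in the sources used here. Reads of *Fgf15*, *Fgf17* and *Fgfr1* may therefore not be separable from those of long noncoding RNA genes that overlap them. The study describes its RNA as taken from WT and mutant ES cell lines, but the labels do not tie a library to a line, so p-values measure the spread between these libraries. ZFP57 peaks were deposited as intervals without scores, in a list for C57BL/6J (at least 2 WT replicates) and a shorter list named for hybrid lines, whose libraries were not used here.

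FPKM were tested as log2(FPKM + 0.1) with limma 3.58.1 (eBayes with trend, two-sided) in R 4.3.3 over the 14612 genes that averaged 0.1 FPKM or more, adjusted by Benjamini-Hochberg over all of them, with a threshold of 0.05. The fit was tested on simulated data. FPKM are not counts, so no count model was used. Depth was inferred from values of genes of 60 to 150 bp, of which 90.0 to 95.0% were within 0.1 of a whole multiple of the smallest step, 0.0170 to 0.0197 FPKM for 1 fragment on 1 kb. Inferred fragments of a gene use its RefSeq exon length and are approximate. Genes were placed on GRCm38, 23192 by symbol and 1096 by synonym, with 108 unmatched and 13 ambiguous. Tables and figures were made with Python 3.11.15, pandas 2.3.3, numpy 2.4.6 and matplotlib 3.10.9.

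The FGF genes and the pathway and marker lists were chosen with earlier results of these data known. From each pathway list up to 6 called genes of the largest change were named (1 of them is not reported here), as were the called neighbours within 250 kb of the cluster and the 3 most alike genes. *Gata6*, *Sox17*, *Gata4*, *Sox7*, *Lama1*, *Eomes*, *Krt8*, *Tfap2c*, *T*, *Foxh1*, *Nodal*, *Pou3f1*, *Lef1*, *Sall2*, *Otx2*, *Fgf11*, *Fgf18*, *Klf2*, *Prdm14*, *Etv5*, *Egr1*, *Fos*, *Ccnd1*, *Oraov1* and *Bc1* were named after their values were seen. Alternatives were other pseudocounts, filters, scaling, variance models, chromosome centring, a replicate block and leaving out each library. A minimum fold change was added after seeing the data.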

Additional observations from a re-analysis of the deposited data

How the results depend on the processing

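*Fgfr1* kept its direction and its call in all 15 alternatives. *Fgfbp1* kept its direction in all 15 (0.55 to 1.04) and its call in 12, *Fgf4* in all 15 and 9, and *Fgfr2* in all 14 and 5. Direction turned for *Fgf17* without ZFP57 KO replicate 2 (0.07, against -0.56 without ZFP57 KO replicate 1) and for *Fgfr4* with quantile normalization (0.16, adjusted p = 0.54). Leaving out 1 library gave 4146 to 4831 calls over all genes, 1 to 4 among the FGF genes, 2 to 3 among the other FGF ligands, 8 to 11 among co-receptor and heparan sulphate genes, 11 to 14 among signalling genes and 9 to 10 among ERK targets. With 1 library in a group, that library was assumed to vary like the others. With eBayes without trend 2 FGF genes were called of 7 tested, and 5331 of all 14612. With a filter of a mean of at least 1 FPKM 1 other ligand was called of 2 tested, and 4890 of all 10664. When a change of 1 or more on the log2 scale was also required, calls were 1172 over all genes, 0 among the FGF genes, 1 other ligand, 3 co-receptor and heparan sulphate genes, 1 signalling gene and 5 ERK targets. The cause of these shifts was not tested.

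Deviations from the group means of libraries with the same number had correlations of -0.068 and -0.036. With 2 KO libraries these deviations mirror each other (WT 1 gave -0.068 with KO 1 and 0.068 with KO 2). Whether the numbers pair the samples therefore cannot be told from these values. With the replicate block, calls were 3012 over all genes, 1 among the FGF genes (*Fgfr1*), 6 co-receptor and heparan sulphate genes, 7 signalling genes, 2 other ligands and 10 ERK targets. Other scalings moved the median of all genes by at most 0.03. At this depth *Fgf15*, *Fgf8* and *Fgfr3* rest on at most 23 inferred fragments per library.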

Other observations

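Of 10 ES cell markers tested, 5 were called higher and 2 lower (70.0% called, against 41.1% of all tested genes), and their summed level was 719 to 741 FPKM in WT and 802 and 870 FPKM in KO. *Tfcp2l1* rose from 90.14, 87.40 and 88.61 FPKM to 132.15 and 136.87 FPKM (log2 fold change 0.60, SE 0.04, limma adjusted p = 3.6e-04), and *Pou5f1* from 166.57, 163.18 and 159.01 FPKM to 185.29 and 209.55 FPKM (0.27, SE 0.06, adjusted p = 0.013). *Klf2* (-0.28, SE 0.06, adjusted p = 0.014) and *Prdm14* (-0.43, SE 0.06, adjusted p = 0.0034) were lower. *Nanog* (-0.11, 95% interval -0.21 to -0.00, adjusted p = 0.095) and *Sox2* (-0.04, -0.16 to 0.07, adjusted p = 0.52) were not called.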
